A study of Oryza sativa with 12 samples.

Results

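The comparison set Oshmgb1 mutant rice (Oryza sativa) against wild-type (WT) rice when both were short of phosphate (Pi), and it rested on 6 of the 12 RNA-seq libraries of the series, 3 of each genotype, chosen by their genotype and Pi labels. Of 32846 genes in the tables, 17630 reached an FPKM (fragments scaled to transcript length and library size) of at least 1 in at least 3 of the 12 libraries and were tested. At the edge of that filter, 332 genes reached this level in exactly 3 libraries and were kept, and 384 reached it in exactly 2 and were not. Of the tested genes, 44 passed through 1 low-Pi group alone, 35 through WT and 9 through the mutant. Of these, 23 and 5 were called, against 15.9% of all tested genes. They were tested only because 1 of the compared groups reached the filter, so their calls are no support for a difference.

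Leaf blades were sampled from seedlings raised in a greenhouse at 30 °C during the 12 h light period and 22 °C during the 12 h night. The WT low-Pi group and the mutant low-Pi group were each grown with high Pi for 14 d and then with low Pi for 7 d, and the WT and mutant high-Pi groups stayed at high Pi for 21 d. The design text gives 200 µM for high and low Pi alike, so the concentration behind the low-Pi label is not clear here. The mutant allele, the part of the gene it affects, the number of mutant lines, the cultivar, the hour of harvest and any pooling of plants were not stated in the labels. Nothing in the labels says that replicates came from separate plants, so the p-values describe the spread among these libraries alone, and that spread may be technical.

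HMGB proteins are small, abundant chromatin proteins with an HMG box that bends DNA, and in plants they help to shape nucleosomes and the access of other factors to DNA. Phosphate is a main nutrient of plants. Leaves short of it induce SPX-domain proteins, phosphate transporters and secreted phosphatases, replace phospholipids by galactolipids and store carbon as starch. The series asks what OsHMGB1 contributes to Pi homeostasis and growth.

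The tissue label was checked first. Summed FPKM of 17 chlorophyll a/b-binding protein loci, which mark green leaf, was 28620 to 45040 in WT and 23430 to 30390 in the mutant at low Pi. Summed FPKM was 245.6 to 307.9 and 228.4 to 277.7 for 60 root-marker loci, 384.6 to 407.8 and 368.2 to 422.0 for 17 stem and meristem loci, and 426.2 to 438.9 and 367.7 to 428.6 for 77 floral and seed loci. The ranges of the genotypes overlapped in all 4 lists, and root and stem markers did not separate them. In whole leaf blades, fewer cells of a type and less RNA per cell cannot be told apart. FPKM summed to between 552079 and 583292 per low-Pi library. Pearson r of log2(FPKM + 1) was 0.979 to 0.984 within a genotype and 0.938 to 0.966 between genotypes at low Pi, and the first principal component of the 6 libraries (60.8% of the variance) put WT at −39.5 to −21.7 and the mutant at 25.7 to 35.5.

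The targeted gene checked the genotype labels. LOC_Os06g51220, described in the files as HMG1/2 and taken as OsHMGB1 from knowledge outside them, had 1747.11, 1790.19 and 2146.98 FPKM in the WT low-Pi libraries against 725.71, 587.13 and 721.09 in the mutant ones. All 3 mutant libraries lay below all WT libraries, and the transcript was lower but far from absent. It fell by 1.48 on the log2 scale (SE 0.13, adjusted p = 0.000266, limma), and its difference at high Pi was −1.19, with no detectable difference between the Pi levels (interaction −0.29, adjusted p = 0.457).

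Other HMG-box loci were measured beside it. LOC_Os09g37910 stood at 26.64, 45.26 and 63.62 FPKM in WT and 98.21, 60.46 and 75.6 in the mutant, with overlapping groups and a log2 difference of 0.83 that did not pass the test (adjusted p = 0.0649). It passed only without WT replicate 3 (adjusted p = 0.0324). At high Pi the same gene was called higher in the mutant (2.15, adjusted p = 0.00561). LOC_Os04g47690, with 180 FPKM for WT against 194 for the mutant, LOC_Os01g47600, at 8.34 and 7.75, and LOC_Os02g44930, at 5.46 and 7.70, did not pass. Over 6 tested loci described as HMG-box or high mobility group proteins, 0 rose and 1, the targeted gene, fell, and the median difference was 0.01.

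Across all genes, 2796 differed between the genotypes at low Pi (adjusted p below 0.05), 15.9% of those tested. Of these, 833 were higher in the mutant (4.72%) and 1963 were lower (11.1%), and 213 and 459 of them differed by at least 1 on the log2 scale. The median difference over all tested genes was −0.07, and rescaling the libraries moved it to 0.01 (median of ratios) or −0.01 (upper quartile). The share of called genes that were higher was 29.8% as deposited, 48.8% after median-of-ratios scaling and 41.9% after upper-quartile scaling, so the overall excess of lower genes depended on scaling. The genotypes did not overlap in 2766 of the called genes, and among all tested genes 37.7% did not overlap.

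Single libraries moved these counts. Without WT replicate 3 the number of called genes was 1274, without mutant replicate 1 it was 1325, without mutant replicate 2 it was 1454 and without WT replicate 2 it was 1761. A stricter set was therefore used to choose the genes named below: 1012 genes (5.74%) were called with all libraries, in each of the 6 fits without 1 low-Pi library and under both rescalings, 9 fits in all. Of these, 313 (1.78%) were higher and 699 (3.96%) lower. They are called robust here. Called genes were spread over expression levels, from 13.6% of the 4407 genes with the lowest mean FPKM to 17.8% of the 4408 genes next to them, and over chromosomes, read from the locus identifiers, from 13.4% on chromosome 12 to 17.7% on chromosome 9.

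The largest robust fall among annotated genes was that of LOC_Os03g08330. This gene, a ZIM-domain gene of the family of JAZ repressors that hold back jasmonate responses and are themselves induced by jasmonate, stood at 25.86, 53.65 and 62.73 FPKM in WT and 0.73, 0.84 and 0.5 in the mutant. The lowest WT library was still many times above the highest mutant library. The log2 difference was −4.75 (SE 0.72, adjusted p = 0.00302), a 27.0-fold fall on the FPKM + 1 scale.

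LOC_Os02g47470, a cytochrome P450 that the files' enzyme annotation places with the abscisic acid hydroxylases that inactivate this hormone, stood at 81.2, 55.02 and 50.24 FPKM in WT and 1.41, 1.82 and 1.67 in the mutant. The mutant libraries were close together and far below WT (−4.56, SE 0.58, adjusted p = 0.00158). At high Pi its levels were 23.7 ± 18.4 and 29.2 ± 20.1 FPKM (SD, n = 3), a difference of 0.23 that did not pass the test, and the interaction was −4.78 (adjusted p = 0.0116).

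A C3HC4 zinc finger gene (LOC_Os02g52210), a class that includes ubiquitin ligases, went from 35.0 ± 12.2 to 0.867 ± 0.189 FPKM (−4.22, adjusted p = 0.00246). The basic helix-loop-helix gene LOC_Os03g53020 fell by 3.90, the U-box gene LOC_Os02g33680 by 3.44 and the MYB gene LOC_Os04g43680 by 3.10. LOC_Os04g58810, of the CAF1 ribonucleases that shorten the poly(A) tails of mRNA, fell from 27.4 ± 8.10 to 2.24 ± 1.02 FPKM (−3.14, adjusted p = 0.00873). LOC_Os01g64470, with a harpin-induced domain, fell by 3.12 and WRKY24 (LOC_Os01g61080), a WRKY transcription factor, by 3.08. LOC_Os02g45450, a dehydration-responsive element-binding factor of the AP2 family, stood at 13.86, 4.13 and 6.38 FPKM in WT and was listed at 0 in all 3 mutant libraries, so no fold is given. LOC_Os07g46670, described as early response to dehydration 15, fell by 2.85, from 48.2 ± 3.69 to 5.83 ± 0.470 FPKM. The ZIM-domain gene LOC_Os10g25290, described with its family below, fell by 3.75. For these 12 genes other than the cytochrome P450, the interaction with Pi did not pass the test (adjusted p from 0.0632 to 0.784), and several were uneven among the WT libraries at high Pi, as with 96.84, 18.78 and 30.17 FPKM for LOC_Os03g08330.

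Among annotated genes with large robust rises, OsFBX404 (LOC_Os11g09590), an F-box gene, a class of substrate receptors of ubiquitin ligases, was listed at 0.09, 0 and 0 FPKM by the WT low-Pi libraries and reached 11.33, 32.73 and 76.43 in those of the mutant. It was also listed at 0 in all 6 high-Pi libraries, so it passed the expression filter through the 3 mutant low-Pi libraries alone, where its levels were uneven, and its call is no support for a rise. LOC_Os08g40510, described as KID-containing, stood at 25.75, 17.96 and 13.27 FPKM in WT and 94.14, 99.7 and 98.87 in the mutant (2.35, SE 0.22, adjusted p = 0.000334). Its levels at high Pi were 66.3 ± 12.8 in WT and 61.2 ± 14.1 in the mutant, so WT at low Pi was the low group.

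OsSAUR39 (LOC_Os09g37330), of the small auxin-up RNA family, stood at 1.54, 2.83 and 1.59 FPKM in WT and 11.07, 18.32 and 10.92 in the mutant (2.26, adjusted p = 0.00138). All 3 mutant libraries were above WT, as the choice of the gene required. Its high-Pi levels were 9.84 ± 1.24 in WT and 5.51 ± 2.67 in the mutant, and the interaction was 3.07 (adjusted p = 0.00296).

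The expansin gene LOC_Os03g04020, whose product loosens cell walls, stood at 30.14, 18.28 and 10.79 FPKM in WT and 72.57, 79.22 and 83.65 in the mutant (2.05, SE 0.34, adjusted p = 0.00408). The trehalose-6-phosphate synthase gene LOC_Os02g54820, of the family that makes the sugar signal trehalose 6-phosphate, stood at 16.4, 8.96 and 5.46 and at 37.85, 40.72 and 37.22 (1.93, SE 0.31, adjusted p = 0.00354). In both genes WT replicate 1 was the highest of the WT libraries and, as their choice required, still below the mutant. Both were lower in the mutant at high Pi, the expansin gene at 83.8 ± 19.6 in WT and 30.4 ± 12.5 in the mutant (−1.49, adjusted p = 0.0397) and the synthase gene at 31.6 ± 6.66 and 10.8 ± 2.94 (−1.48, adjusted p = 0.0281), so the genotype difference had opposite signs at the Pi levels. Without a filter on low values these high-Pi calls were lost (adjusted p = 0.0703 and 0.0517), and that of the expansin gene was also lost without WT low-Pi replicate 2 (0.0552) or any 1 mutant low-Pi library. The interactions were 3.53 (adjusted p = 0.00425) and 3.41 (adjusted p = 0.00296).

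Further large rises were in HLS (LOC_Os03g55530, 2.60), the beta-amylase gene LOC_Os10g32810, whose family releases maltose from starch (1.80 ± 0.804 to 12.4 ± 6.34 FPKM, 2.16), a thioredoxin gene (LOC_Os07g48510, 2.11) and a PB1-domain gene (LOC_Os11g25780, 2.04). LOC_Os04g16876, described as photosystem II protein Z, rose by 2.01. The F-box kelch genes OsFBK25 (LOC_Os11g14140) and OsFBK4 (LOC_Os02g11790) rose by 1.92 and 1.88. OsFBK25 stood at 40.13, 21.47 and 19.9 FPKM in WT and 84.24, 114.2 and 106.48 in the mutant, without overlap, as its choice required.

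**Figure D1:**
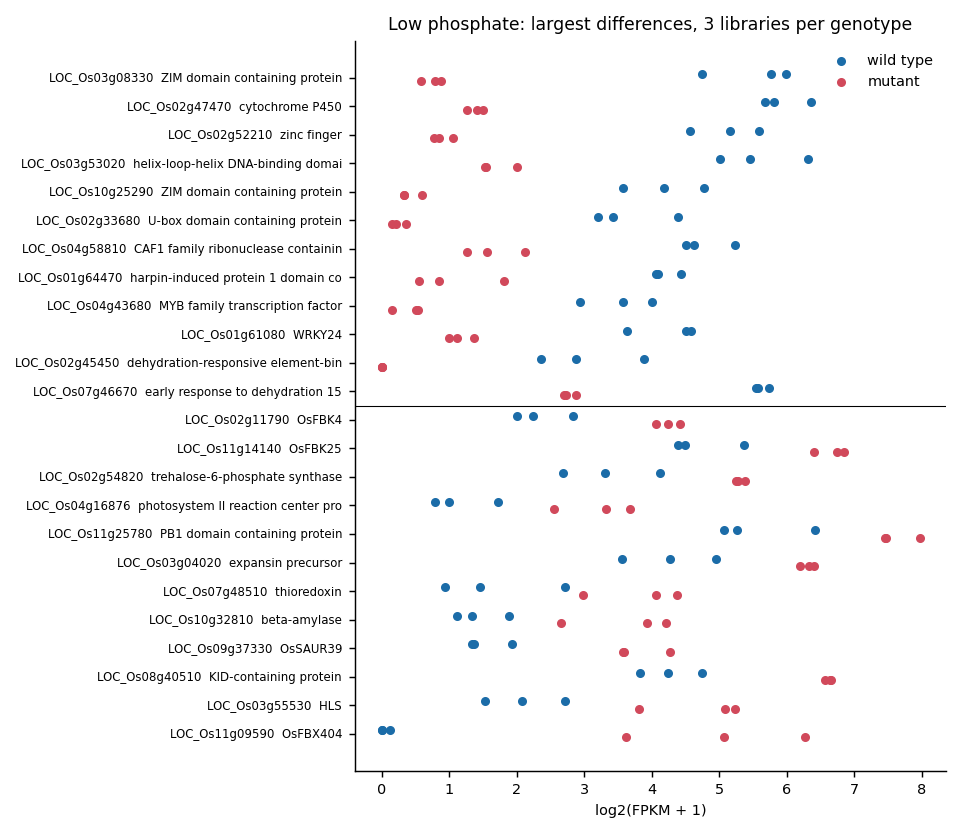
Level of the 12 largest robust falls and 12 largest robust rises among annotated genes, as log2(FPKM + 1) on the horizontal axis, with 1 point per low-Pi library (3 WT, blue; 3 mutant, red). Lack of overlap between the genotypes was a condition for choosing these 24 genes. OsFBX404 lies at or near 0 in WT and LOC_Os02g45450 at 0 in the mutant.

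Genes were then grouped into 51 lists by the words of their descriptions or by the files' pathway annotation, and each list is read against the 4.72% higher and 11.1% lower of all tested genes and their median of −0.07. The lists share some genes, and where a count in one direction is 0 in the limma fit, the number with an unadjusted p below 0.05 is given for the lists described in full. Among hormone lists, 0 of 23 tested jasmonate synthesis and ZIM-domain genes rose, with 0 also at an unadjusted p below 0.05, and 11 fell (5 robust falls, median −0.68). All 6 tested ZIM-domain loci, a subgroup chosen after its values were seen, were among the 11, with a median of −2.05. Robust falls were those of LOC_Os03g08330, LOC_Os10g25290 (10.89, 17.21 and 26.36 FPKM in WT and 0.26, 0.26 and 0.52 in the mutant, −3.75) and LOC_Os10g25230 (−2.01). LOC_Os03g08310, LOC_Os03g08320 and LOC_Os03g28940 passed with all libraries (adjusted p from 0.029 to 0.0453) but not in every fit. The number of ZIM-domain falls was 3 without WT replicate 2, WT replicate 3, mutant replicate 1 or mutant replicate 2. The number of falls in the whole jasmonate list was 7, 5, 6 and 6 without these libraries. Several members have neighbouring locus identifiers on chromosomes 3 and 10, and reads shared among close copies cannot be assigned with certainty.

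Summed FPKM of the 6 ZIM-domain loci was 103.36, 169.52 and 225.21 in the WT low-Pi libraries and 18.31, 19.13 and 27.22 in the mutant. At high Pi it was 462.36, 77.38 and 118.51 in WT and 23.16, 59.81 and 17.36 in the mutant. The sum was thus lower in every mutant library than in every WT library at each Pi level. At high Pi, where 2.27% of all tested genes were called lower, 2 of the 6 loci were, with a median of −1.77, and 0 had a called interaction, also at an unadjusted p below 0.05. Those calls, of LOC_Os03g08330 and LOC_Os10g25290, were lost with no filter on low values and with a replicate block, where the adjusted p reached 0.0616 and 0.0706. All 6 were lower at high Pi at an unadjusted p below 0.05. The lipoxygenase genes LOC_Os05g23880 and LOC_Os04g37430, of the enzyme family that starts jasmonate synthesis, fell by 0.79 and 1.36.

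Of 53 tested gibberellin genes, 3 rose and 12 fell (1 and 6 robust, median −0.31). The GRAS-family gene LOC_Os01g71970, of the family that holds the DELLA repressors, stood at 14.65, 14.77 and 20.3 FPKM in WT and 6.55, 7 and 7.29 in the mutant (−1.13, adjusted p = 0.00325). At high Pi the order was the reverse, 6.13 ± 1.82 in WT and 15.99 ± 2.06 in the mutant (1.28, adjusted p = 0.00746), and the interaction was −2.41 (adjusted p = 0.000924). Of the loci described as gibberellin receptors, LOC_Os09g28650 (−0.82), LOC_Os09g28750 (−0.76) and LOC_Os09g28230 (−1.20), with identifiers close together on chromosome 9, fell. Only 6 gibberellin falls passed without WT replicate 3, and 7 without mutant replicate 1.

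Of 75 tested genes of late embryogenesis abundant (LEA) proteins, dehydrins and type 2C protein phosphatases, which act in or respond to abscisic acid signalling, 4 rose and 12 fell (1 and 5 robust). The phosphatase gene LOC_Os03g55320 fell by 1.28 and the LEA genes LOC_Os05g08920 and LOC_Os05g50710 by 0.95 and 0.76. Of 85 tested auxin response genes, 3 rose and 9 fell, a balance that turned to 6 and 5 after median-of-ratios scaling. The falls numbered 6 in the LEA, dehydrin and phosphatase list without mutant replicate 1, and 3 in the auxin list without WT replicate 3. The auxin-repressed gene LOC_Os08g35190 rose from 44.1 ± 14.2 to 141.9 ± 25.3 FPKM (1.69, adjusted p = 0.00244), and OsSAUR11 (LOC_Os02g42990) and OsSAUR19 (LOC_Os04g45370) fell by 1.62 and 0.97. Of 28 tested cytokinin genes, 2 rose and 0 fell, with 2 lower at an unadjusted p below 0.05.

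Falls outnumbered rises in several transcription factor families, as they did over all genes. Of 52 tested WRKY genes, which act in defence and stress responses, 3 rose and 16 fell (0 and 7 robust, median −0.25). At high Pi 0 of the 52 were called in either direction by limma, although 2 were higher and 10 lower at an unadjusted p below 0.05 and the median was also −0.25. The interaction was called for 0 WRKY genes, with 4 positive and 6 negative at an unadjusted p below 0.05. WRKY71 (LOC_Os02g08440) stood at 32.85, 50.82 and 36.84 FPKM in WT and 3.78, 6.63 and 5.59 in the mutant (−2.70, adjusted p = 0.00753). WRKY15 (LOC_Os01g46800), WRKY69 (LOC_Os08g29660) and WRKY51 (LOC_Os04g21950) fell by 2.18, 2.39 and 0.97. The number of WRKY falls was 7 without mutant replicate 1 and 8 without WT replicate 3.

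Of 44 tested NAC genes, plant-specific factors of stress and ageing, 3 rose and 15 fell (1 and 8 robust, median −0.36). LOC_Os03g04070, LOC_Os06g51070 and LOC_Os11g08210 fell by 2.37, 2.29 and 1.62. Of 66 tested AP2/ERF genes, 4 rose and 14 fell (0 and 6 robust). LOC_Os01g04020 stood at 169.09, 152.69 and 179.2 FPKM in WT and 68.47, 75.64 and 83.95 in the mutant (−1.13, adjusted p = 0.00103), with no difference seen at high Pi (0.00) and an interaction of −1.13 (adjusted p = 0.00839). LOC_Os09g20350, described as an ethylene-responsive factor, fell by 0.69 with an interaction of −0.95. The AP2 falls numbered 6 without WT replicate 3, 7 without mutant replicate 1 and 8 without mutant replicate 3. Of 48 tested basic helix-loop-helix genes 2 rose and 9 fell, and of 39 tested homeobox genes 2 rose and 6 fell. The homeobox leucine zipper gene LOC_Os09g29460 stood at 189.62, 237.68 and 226.94 FPKM in WT and 39.87, 40.81 and 65.41 in the mutant (−2.17, adjusted p = 0.00172), and the interaction was −2.84 (adjusted p = 0.00524). Of 111 tested MYB genes 9 rose and 14 fell, and after median-of-ratios scaling 19 rose and 12 fell, so MYB genes had no direction that held. Leaving out 1 library reduced several of these counts. The falls numbered 9 for NAC genes and 3 each for basic helix-loop-helix and homeobox genes without WT replicate 3 or mutant replicate 1. Basic helix-loop-helix falls were also 3 without mutant replicate 2 and 4 without WT replicate 2.

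The calmodulin-like and EF-hand list was matched on description words. It holds calcium-binding proteins and also kinase genes, such as the SNF1-type ones below. Of its 117 tested genes, 8 rose and 26 fell (5 and 10 robust, median −0.20), which are not counts of calcium-binding proteins alone. The robust genes of the list thus divided much as those over all genes, 313 higher and 699 lower. OsCML10 (LOC_Os01g72100) stood at 134.07, 116.11 and 163.51 FPKM in WT and 22.85, 16.55 and 27.43 in the mutant, a 6.03-fold fall on the FPKM + 1 scale (−2.59, SE 0.20, adjusted p = 8.91e-05). Its high-Pi levels were 43.2 ± 9.12 and 49.97 ± 6.35, so WT at low Pi was the high group, and the interaction was −2.81 (adjusted p = 0.000917). LOC_Os01g72080, described as calmodulin-like protein 1, fell from 134.6 ± 13.2 to 40.7 ± 7.88 (−1.71), the SNF1-type kinase gene LOC_Os07g48100 fell by 1.18, and its relative LOC_Os05g04550 rose from 5.17 to 14.3 FPKM (adjusted p = 0.00103). Within the list, 17 loci described as OsCML calcium sensors, a subgroup chosen after its values were seen, held 5 falls and 0 rises, and 10 and 0 at an unadjusted p below 0.05. The falls of the whole list numbered 11 without WT replicate 3 or mutant replicate 1 and 13 without mutant replicate 2.

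Of 106 tested wall-associated and DUF26 receptor kinase genes, which sense the cell wall and pathogens, 3 rose and 30 fell (0 and 16 robust, median −0.39). OsWAK16 (LOC_Os02g42190) stood at 4.92, 4.44 and 4.85 FPKM in WT and 0.51, 0.58 and 0.49 in the mutant (−1.91, adjusted p = 0.00274). OsWAK15 (LOC_Os02g42160), OsWAK85 (LOC_Os09g29600) and the DUF26 kinase gene LOC_Os01g03690 fell by 1.35, 1.24 and 1.83. The number of falls in the list was 16 without mutant replicate 1 and 17 without WT replicate 3. At high Pi 6 of the 106 were lower and 0 higher, against 2.27% and 1.3% of all tested genes. At an unadjusted p below 0.05 in the limma fit, 29 were lower and 5 higher at high Pi. The called interactions were 0 positive and 2 negative, against 1.49% and 2.14% of all tested genes. Of 179 tested NBS-LRR immune receptor genes 11 rose and 22 fell as deposited and 17 rose and 15 fell after median-of-ratios scaling. Of 70 tested pathogenesis-related proteins, chitinases and inhibitors 3 rose and 6 fell.

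**Figure D2:**
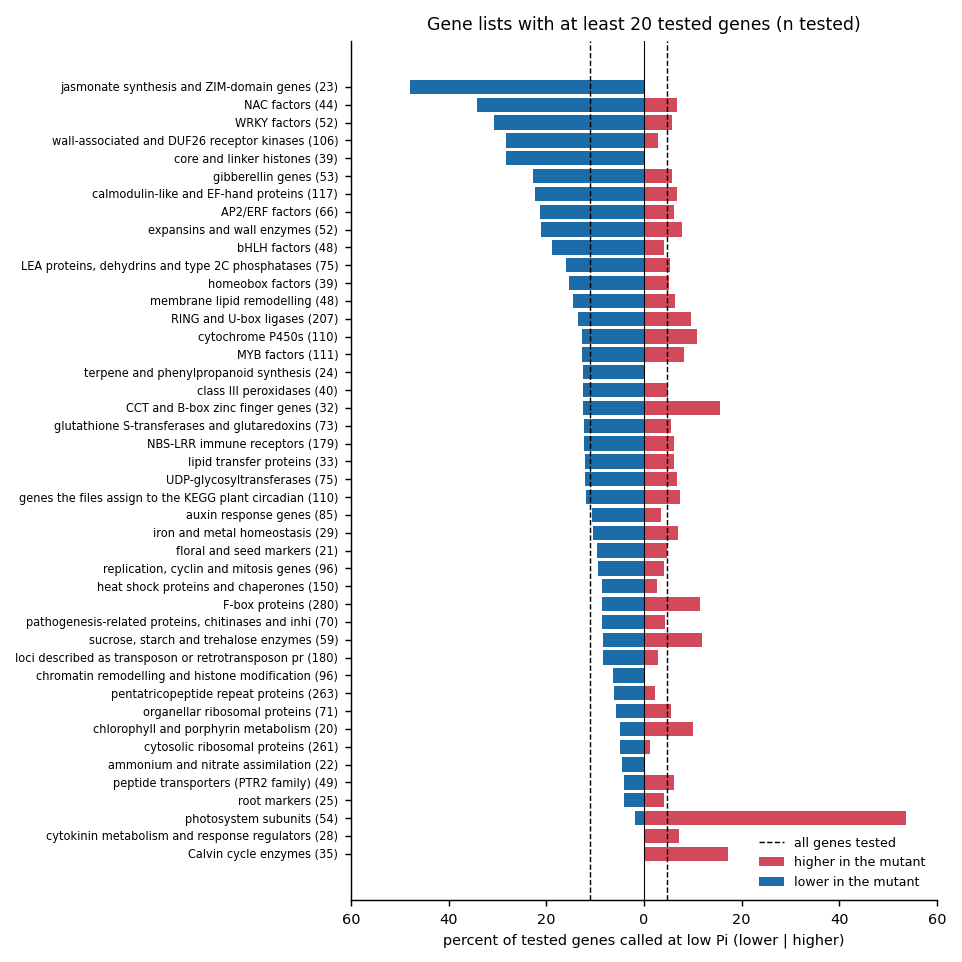
Percent of the tested genes of each list that were called at low Pi, lower in the mutant to the left (blue) and higher to the right (red); the number tested is in brackets and the dashed lines mark 11.1% lower and 4.72% higher over all tested genes. Jasmonate, NAC, WRKY, receptor kinase and histone lists extend farthest to the left, and photosystem subunits to the right.

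Of 39 tested core and linker histone genes, which encode the proteins that package DNA, 0 rose and 11 fell (3 robust, median −0.63), and at an unadjusted p below 0.05 the counts were 0 and 23. LOC_Os07g36130 stood at 36.87, 52.72 and 98.41 FPKM in WT and 18.96, 17.06 and 16.94 in the mutant (−1.66, SE 0.31, adjusted p = 0.00704). The WT libraries were uneven, with replicate 3 the highest, while the mutant libraries were close together. LOC_Os01g05900 and LOC_Os12g25120, with the same order of WT libraries, fell by 1.89 and 1.67. At high Pi the histone list had a median of 0.44 with 2 genes higher (1.3% of all tested genes were) and 0 lower, and 8 histone genes had a called negative interaction, as did 2.14% of all tested genes. Summed FPKM of the 59 histone loci was 3643.39, 4313.07 and 7496.06 in WT and 3631.09, 3095.46 and 3525.47 in the mutant at low Pi, so WT replicate 1 did not stand clear of the mutant. The falls numbered 20 without WT replicate 1, 7 without WT replicate 2, 5 without WT replicate 3, 3 without mutant replicate 1 or 2 and 7 without mutant replicate 3. Histone genes have near-identical copies, and reads shared among them cannot be assigned with certainty.

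Of 96 tested replication, cyclin and mitosis genes 4 rose and 9 fell, and 7 rose and 6 fell after median-of-ratios scaling. Of 96 tested chromatin remodelling and histone modification genes 0 rose and 6 fell (3 robust), below the share over all genes. After median-of-ratios scaling 3 of them rose and 5 fell. At an unadjusted p below 0.05 in the limma fit, 4 were higher and 17 lower. Of 180 tested loci described as transposon or retrotransposon proteins 5 rose and 15 fell, and 12 rose and 11 fell after median-of-ratios scaling.

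Of 54 tested photosystem subunit loci, 29 rose and 1 fell (16 and 0 robust, median 0.87). The rises lay in 37 loci whose product is one that the plastid genome encodes, a subgroup set apart after its values were seen: 28 rose and 0 fell (median 0.99), and 29 and 0 did so at an unadjusted p below 0.05. The other 17 loci, nuclear genes by product, held 1 rise and 1 fall (median −0.24). LOC_Os06g39708, described as a photosystem II P680 chlorophyll apoprotein, stood at 6.54, 3.21 and 3.23 FPKM in WT and 15.75, 15.54 and 10.46 in the mutant (1.52, adjusted p = 0.00254). LOC_Os10g38234, described as a photosystem I P700 apoprotein, and LOC_Os09g04680, described as another P680 apoprotein, rose by 1.25 and 1.10.

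Summed FPKM of the plastid-type loci was 741.6, 449.46 and 549.05 in WT and 965.67, 1022.21 and 658.01 in the mutant at low Pi, where mutant replicate 3 lay below WT replicate 1. The sums at high Pi were 769.92 to 843.23 in WT and 700.22 to 1010.47 in the mutant. The group sums therefore overlapped at both Pi levels, although 28 single loci passed the test. The count of rises was 17 without mutant replicate 1, and ran up to 28 without mutant replicate 3. These loci carry nuclear locus identifiers and plastid-type products. Reads from the plastid genome and from nuclear copies cannot be told apart here, several loci hold copies of the same gene, and their number is not a number of independent measurements. Of 37, 4 had a called positive interaction, as did 1.49% of all tested genes, and 1 was higher at high Pi.

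Of 16 tested chlorophyll a/b-binding protein genes 0 rose and 1 fell, and no fall remained under either rescaling. Of 35 tested Calvin cycle genes 6 rose and 0 fell (1 robust), and without WT replicate 3 only 1 rose. The median of this list was −0.02, with 16 differences above 0 and 19 below. At an unadjusted p below 0.05 in the limma fit, 7 were higher and 3 lower. Of 20 tested chlorophyll and porphyrin genes 2 rose and 1 fell. Of 71 tested organellar ribosomal protein genes 4 rose and 4 fell (median 0.28), and 16 rose without mutant replicate 3. Of 261 tested cytosolic ribosomal protein genes 3 rose and 13 fell, below the share over all genes, and of 263 tested pentatricopeptide repeat genes, which act on organelle RNA, 6 rose and 16 fell. After median-of-ratios scaling the pentatricopeptide repeat counts were 9 and 9.

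**Figure D3:**
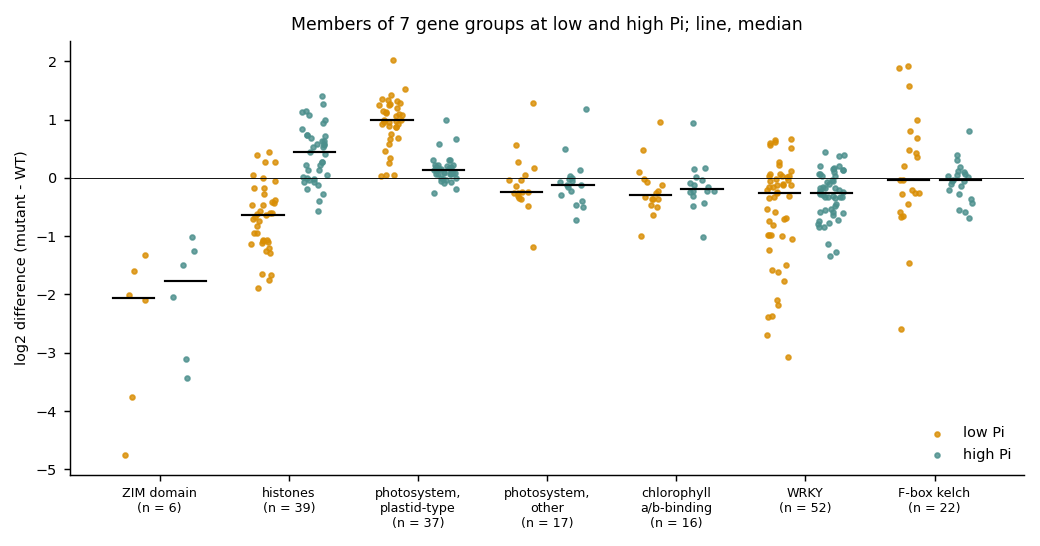
Log2 difference (mutant minus WT) of each tested member of 7 gene groups, at low Pi (orange) and high Pi (green), with the median as a line. Histone medians lie at −0.63 and 0.44, plastid-type photosystem medians at 0.99 and 0.13, and ZIM-domain medians at −2.05 and −1.77.

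Of 59 tested sucrose, starch and trehalose genes, 7 rose and 5 fell (4 and 0 robust). The falls numbered 0 and the rises 4 without WT replicate 3 or mutant replicate 1. Besides the trehalose-6-phosphate synthase and beta-amylase genes above, the sucrose-phosphate synthase gene LOC_Os01g69030, of the enzyme that commits carbon to sucrose, stood at 27.09, 28.66 and 29.08 FPKM in WT and 53.78, 41.03 and 47.01 in the mutant (0.71, adjusted p = 0.00287). It was also higher in the mutant at high Pi (0.60, adjusted p = 0.0181). Of 22 tested nitrogen assimilation genes (median 0.065), 5 were higher and 3 lower at an unadjusted p below 0.05 in the limma fit. After adjustment 0 rose and 1 fell. That gene, the chloroplast glutamate synthase gene LOC_Os05g48200, of the enzyme that joins ammonium assimilation to glutamate, stood at 192.55, 200.73 and 186.07 FPKM in WT and 33.99, 70.22 and 65.28 in the mutant (−1.82, SE 0.28, adjusted p = 0.00323). Its difference at high Pi was −1.23 (adjusted p = 0.0407, at most 0.071 over the alternatives).

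Genes of Pi supply itself gave few calls. SPX-domain genes, whose products sense Pi status, were uneven in WT at low Pi. LOC_Os02g10780 stood at 16.65, 36.28 and 105.72 FPKM in WT and 38.42, 23.61 and 32.96 in the mutant, and LOC_Os06g40120 at 16.49, 32.72 and 76.56 and at 29.82, 18.44 and 30.27. The genotypes overlapped in both, with WT replicate 3 the highest library and WT replicate 1 the lowest, and the differences of −0.36 (SE 0.50) and −0.43 (SE 0.44) did not pass the test (adjusted p = 0.66 and 0.548), nor an unadjusted p of 0.05. The part of this unevenness in the genotype differences of other genes was not tested.

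Of 5 tested phosphate transporter genes, 0 rose and 1 fell. LOC_Os03g05620 stood at 71.12, 58.2 and 60.94 FPKM in WT and 27.03, 39.3 and 31.03 in the mutant (−0.96, adjusted p = 0.0257), without overlap, but its adjusted p reached 0.0978 over the alternative fits. LOC_Os10g30790 stood at 15.72, 19.53 and 30.55 and at 5.43, 7.91 and 6.33, also without overlap, and did not pass the test with 12 libraries (−1.56, SE 0.85, adjusted p = 0.236). It passed in a fit to the 6 low-Pi libraries alone (adjusted p = 0.00701). The chloroplast transporter gene LOC_Os02g38020 (0.50, adjusted p = 0.0919) and LOC_Os06g29790 (0.44, adjusted p = 0.0869) did not pass.

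Of 10 tested acid phosphatase genes 0 were called in the limma fit, 1 was higher and 1 lower at an unadjusted p below 0.05, and 2 rose after median-of-ratios scaling. The purple acid phosphatase genes LOC_Os01g56880 and LOC_Os12g44030, of the family that frees Pi from organic esters, had differences of 0.47 (adjusted p = 0.0717) and 0.27 (adjusted p = 0.193). Membrane lipid remodelling, with 48 genes tested, held 3 rises and 7 falls (1 and 3 robust), and 6 rose and 6 fell after median-of-ratios scaling. The digalactosyldiacylglycerol synthase gene LOC_Os11g05990, of the enzyme that makes a galactolipid used in place of phospholipid, rose from 13.5 ± 1.36 to 24.0 ± 4.36 FPKM (0.78, adjusted p = 0.00725). The glycerophosphoryl diester phosphodiesterase gene LOC_Os03g40670, of a family that breaks down phospholipid head groups, fell from 6.39 ± 0.489 to 1.99 ± 0.427 (−1.31, adjusted p = 0.00321), and LOC_Os12g12260, a diacylglycerol kinase gene, fell by 1.07.

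Of 280 tested F-box genes, 32 rose and 24 fell (17 and 4 robust). The falls numbered 4 without mutant replicate 1, 7 without mutant replicate 2 and 8 without WT replicate 3, and the rises ran from 18 without mutant replicate 2 to 35 without WT replicate 1. Among 22 tested F-box kelch genes, a subgroup chosen after its values were seen, 7 rose and 2 fell (6 and 2 robust). OsFBK14 (LOC_Os04g31120), OsFBK6 (LOC_Os02g21110), OsFBK16 (LOC_Os06g39370) and OsFBK21 (LOC_Os10g21930) rose by 1.58, 0.99, 0.81 and 0.48. OsFBK10 (LOC_Os02g51350) fell by 2.59 and OsFBK12 (LOC_Os03g07530) by 1.46. Of 207 tested RING and U-box genes 20 rose and 28 fell as deposited and 33 rose and 19 fell after median-of-ratios scaling. LOC_Os01g60730 and LOC_Os04g34140 fell by 1.81 and 1.70.

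Genes tied to day length and the clock were compared because the hour of harvest is not given. Of 110 tested genes that the files place in the plant circadian pathway 8 rose and 13 fell, and 15 rose and 9 fell after median-of-ratios scaling. Among 9 core clock loci, a subgroup chosen after its values were seen, 1 rose. LOC_Os08g06110, which the files' orthology places with the morning factor LHY, stood at 47.94, 32.25 and 32.82 FPKM in WT and 72.64, 72.59 and 60.66 in the mutant (0.87, adjusted p = 0.00424). It was also higher in the mutant at high Pi (0.79, adjusted p = 0.0189), where its levels were 275 ± 20.9 and 476 ± 24.7, several times those at low Pi. GIGANTEA (LOC_Os01g08700), an evening gene, stood at 365.24, 269.49 and 277.16 in WT and 251.15, 354.01 and 277.1 in the mutant (−0.05, adjusted p = 0.877). A difference in harvest hour between groups and a difference in clock gene expression cannot be told apart.

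Of 32 tested CCT and B-box zinc finger genes, which act in light and flowering-time responses, 5 rose and 4 fell (3 and 4 robust). LOC_Os02g39710 stood at 41.81, 28.9 and 22.34 FPKM in WT and 93.24, 91.01 and 98.4 in the mutant (1.62, adjusted p = 0.00181), and at 108 ± 21.8 and 89.1 ± 17.8 at high Pi, with an interaction of 1.89 (adjusted p = 0.00847). LOC_Os05g51690 fell by 1.18 at low Pi and was higher in the mutant at high Pi (0.68, adjusted p = 0.0476, at most 0.0758 over the alternatives), with an interaction of −1.87 (adjusted p = 0.00296). LOC_Os08g42440 was lower in the mutant at low Pi (−1.04) and at high Pi (−1.10).

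The remaining lists are given mainly by their counts. Of 52 tested expansin and wall enzyme genes 4 rose and 11 fell (2 and 6 robust), among them a pectinesterase gene (LOC_Os09g39760, −2.14), a polygalacturonase gene (LOC_Os05g46520, −0.87) and CSLD2 (LOC_Os06g02180, −1.01). Of 150 tested heat shock and chaperone genes 4 rose and 13 fell, with the DnaJ gene LOC_Os01g42190 down from 12.8 to 2.53 FPKM and LOC_Os11g10990 up by 0.86 on the log2 scale. Without WT replicate 3 or mutant replicate 1 the falls numbered 7 in the wall list and 4 in the chaperone list. In the chaperone list 5 rose and 6 fell after median-of-ratios scaling, and 5 and 7 after upper-quartile scaling. Of 110 tested cytochrome P450 genes 12 rose and 14 fell, of 75 UDP-glycosyltransferase genes 5 and 9, of 73 glutathione S-transferase and glutaredoxin genes 4 and 9, and of 40 peroxidase genes 2 and 5. Median-of-ratios scaling gave 9 rises and 8 falls of UDP-glycosyltransferase genes and 6 and 6 in the glutathione list. Without mutant replicate 1 the falls were 2 and 5 in these lists and 6 among cytochrome P450 genes. Of 33 tested lipid transfer protein genes 2 rose and 4 fell, of 49 peptide transporter genes 3 and 2, and of 24 terpene and phenylpropanoid genes 0 and 3. Of 29 tested iron and metal genes 2 rose and 3 fell, and of 11 thiamine and sigma factor genes 1 and 1. The iron and metal counts were 2 and 2 under either rescaling. Of the marker lists, 1 of 25 tested root loci rose and 1 fell, 0 of 6 stem and meristem loci were called (1 was higher at an unadjusted p below 0.05), and 1 of 21 floral and seed loci rose and 2 fell.

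The low-Pi differences were set beside those at high Pi, which come from other libraries. The fit gives both the same estimate of spread, so calls at low and high Pi are not independent. At high Pi 631 genes (3.58%) differed between the genotypes, and at low Pi 15.9% of all tested genes did. Both calls were made for 302 genes, 10.8% of the low-Pi calls and 47.9% of the high-Pi calls, with the same direction in 239 and the opposite in 63. Across 17630 genes, which are not independent, the differences at low and high Pi had a Pearson r of 0.34 and a Spearman rho of 0.30. Of the robust rises, 58.8% had the same sign at high Pi, and their median difference was 0.95 at low Pi and 0.09 at high Pi. Of the robust falls, 71.4% had the same sign, with medians of −0.90 and −0.27. Robust genes were chosen by their low-Pi difference, which favours larger medians at low Pi than at high Pi. The gap between these medians is therefore no measure of an effect of Pi. The share with the same sign over all tested genes was not computed.

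The difference between the genotype effects was tested as an interaction, which was called for 641 genes (3.64%). Of the 2796 genes called at low Pi, 511 (18.3%) had a called interaction, and of the 1012 robust genes 331 did, 127 of the rises and 204 of the falls. The low-Pi difference is part of the interaction, so choosing genes by it favours interaction calls. These counts are therefore not set against the 3.64% and are no support for an effect particular to low Pi. A gene without a called interaction is not shown to act alike at the Pi levels. Among annotated genes with the largest interactions, LOC_Os04g49660, with a DUF581 domain, stood at 37.96, 37.35 and 53.78 FPKM in WT and 5.2, 5.65 and 12.4 in the mutant under low Pi (−2.40, adjusted p = 0.00069). At high Pi it stood at 10.9 ± 1.27 and 22.3 ± 2.21, and the interaction was −3.38 (adjusted p = 0.00103).

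LOC_Os02g44820, described as a protein related to rho GTPase-activating proteins, stood at 24.01, 14.48 and 12.26 FPKM in WT and 63.89, 67 and 51.11 in the mutant at low Pi, with 33.3 ± 11.2 and 12.4 ± 6.45 at high Pi (interaction 3.27, adjusted p = 0.0073). The phosphatase gene LOC_Os03g49440 stood at 55.35, 24.86 and 9.47 and at 65.78, 99.17 and 98.8 at low Pi, with an interaction of 3.89 (adjusted p = 0.0215). That call was lost without mutant replicate 2 (adjusted p = 0.0595) and with no filter (0.0504). The dof zinc finger gene LOC_Os07g32510 stood at 7.84, 7.48 and 9.12 in WT and 3.86, 3.1 and 4.06 in the mutant at low Pi (−0.97), was higher in the mutant at high Pi (0.58, adjusted p = 0.0189) and had an interaction of −1.55 (adjusted p = 0.000773).

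**Figure D4:**
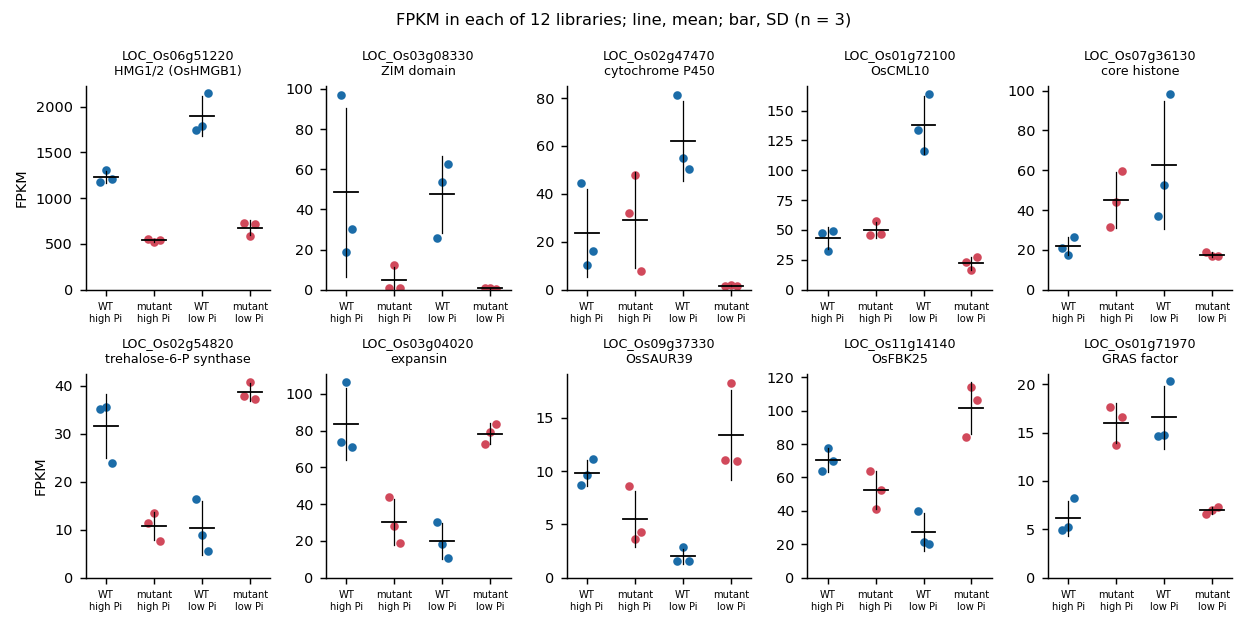
FPKM of 10 genes in all 12 libraries (points), with the group mean (line) and SD (bar, n = 3). The HMG1/2 and ZIM-domain genes are lower in the mutant at both Pi levels, OsCML10 is highest in WT at low Pi, and the expansin and trehalose-6-phosphate synthase genes are higher in the mutant at low Pi and lower at high Pi.

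**Figure D5:**
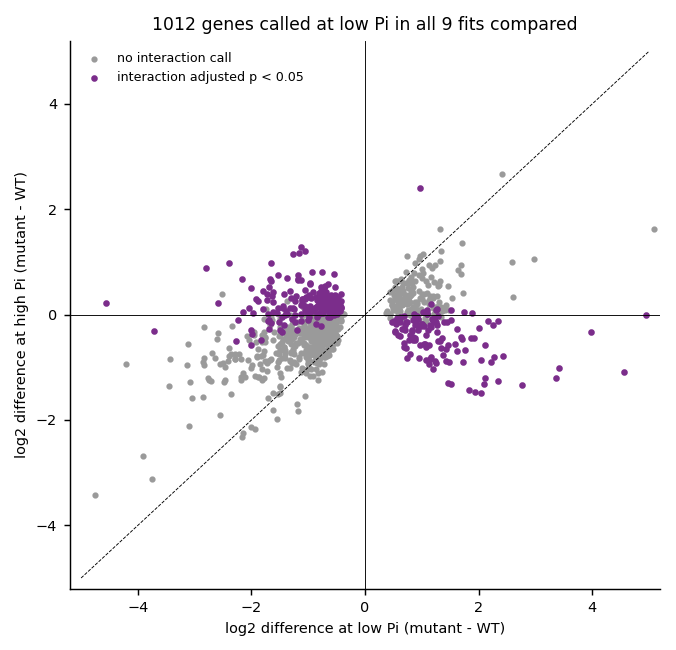
Log2 difference between mutant and WT at low Pi (horizontal) and high Pi (vertical) for the 1012 robust genes, with the 331 that had a called interaction in purple and equal differences on the dashed line. The robust rises have a median of 0.95 at low Pi and 0.09 at high Pi, and the robust falls medians of −0.90 and −0.27. The genes were chosen by their low-Pi difference, which favours larger medians at low Pi and interaction calls.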

How the data were processed

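Leaf blade RNA was sequenced in 12 libraries, 4 groups of 3 by genotype and Pi label. HISAT2 2.0.5, StringTie 1.3.6 and CASAVA 2.17 were used per the submitters' processing notes, which state no role. Not given in the sources used here are the genome build, the annotation, the strand of counting and the treatment of multi-mapping reads. Per the file headers, the authors deposited FPKM per gene. The design had foreseen counts or FPKM, and the files held FPKM, so sequencing depth could not be known and counting intervals were not made. Each library stood in 2 of 4 tables with identical values for 12 of 12 libraries. The authors' own fold, p and call columns and 2 columns without a label were not used.

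Values were taken as log2(FPKM + 1), which understates the change of weak genes. Genes that reached FPKM 1 in 3 or more libraries were fitted in 1 linear model over all 12 libraries, which share the estimate of spread, with limma 3.58.1 in R 4.3.3 (moderated two-sided test with a mean trend, no replicate block) and Benjamini-Hochberg adjustment over 17630 genes. Contrasts were mutant minus WT at low Pi, at high Pi and their difference (interaction). The fit was also run on simulated data with independent noise in each value. Those data hold no effect shared by the genes of a library, so they do not bear on uneven libraries. Python 3.11.15 with numpy 2.4.6 and pandas 2.3.3 handled the tables, and matplotlib 3.10.9 drew the plots. Levels are mean ± SD in FPKM (n = 3). A gene-wise exact permutation test of 3 against 3 libraries cannot go below 0.1 and was not used.

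Genes were named by a rule, with LOC_Os06g51220 and its HMG1/2 relatives first. Next were the 12 largest rises and 12 largest falls at low Pi among robust genes (those called in all 9 fits). These had an informative description, a higher group at a mean of 5 FPKM or more and no overlap. Up to 4 robust members with the smallest p were added from some of the lists, not from all 51. A list without a named gene may therefore still hold robust genes. The 6 largest called interactions in each direction were also named. All tested SPX, phosphate transporter, acid phosphatase and core clock genes were also considered. The other ZIM-domain and F-box kelch members were named after their values were seen. The comparison and the 51 lists were chosen with earlier results of these data known, and 6 subgroups were set after their values were seen. Names come from the deposited descriptions, as the supplied gene table matched 0 identifiers. Alternatives were another pseudocount, other filters, both rescalings, the low-Pi libraries alone, a replicate block, no mean trend and leaving out each low-Pi library.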

Additional observations from a re-analysis of the deposited data

Results flagged for a closer look

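For 47 named genes the difference between mutant and WT at low Pi differed from that at high Pi, by the interaction term of the limma model (low-Pi difference minus high-Pi difference, log2 scale, adjusted p below 0.05). Some of these genes were named because their interaction was among the largest called ones, so that choice fixed their call here. The low-Pi libraries helped to choose the others, so their interaction is not independent of that choice either. The count of 47 is therefore not set against the 3.64% of all tested genes with a called interaction. In 28 of the 47 genes the interaction stayed called without each low-Pi library and under both rescalings.

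Negative interactions that stayed called were those of the cytochrome P450 LOC_Os02g47470 (−4.78), the DUF581 gene LOC_Os04g49660 (−3.38), the homeobox gene LOC_Os09g29460 (−2.84), OsCML10 LOC_Os01g72100 (−2.81), the histone LOC_Os07g36130 (−2.64) and the GRAS gene LOC_Os01g71970 (−2.41). They included the NAC gene LOC_Os11g08210 (−2.06), the CCT gene LOC_Os05g51690 (−1.87), the SNF1-type kinase LOC_Os07g48100 (−1.84), the dof gene LOC_Os07g32510 (−1.55) and the LEA gene LOC_Os05g08920 (−1.26). Smaller ones were LOC_Os01g04020 (AP2, −1.13), LOC_Os04g30890 (MYB, −1.06) and LOC_Os09g20350 (ethylene-responsive factor, −0.95).

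Positive interactions that stayed called were those of the expansin LOC_Os03g04020 (3.53), the trehalose-6-phosphate synthase LOC_Os02g54820 (3.41), the thioredoxin LOC_Os07g48510 (3.31), the rho GTPase-activating relative LOC_Os02g44820 (3.27), OsSAUR39 LOC_Os09g37330 (3.07), the PB1 gene LOC_Os11g25780 (2.90), the KID gene LOC_Os08g40510 (2.47) and OsFBK25 LOC_Os11g14140 (2.36). They included the photosystem II protein Z locus LOC_Os04g16876 (2.27), the MYB genes LOC_Os01g41900 (2.14) and LOC_Os08g04840 (1.08), the auxin-repressed gene LOC_Os08g35190 (2.12) and the B-box gene LOC_Os02g39710 (1.89). The fitted 4.95 of OsFBX404, LOC_Os11g09590, depends on the pseudocount, since the 6 high-Pi libraries all list this gene at 0, and the gene was tested only because of its levels in the 3 mutant low-Pi libraries.

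The other 19 interactions lost their call in at least 1 alternative, where the adjusted p reached 0.0554 to 0.407. Negative ones were LOC_Os07g33270 (DUF584, −3.69), the histones LOC_Os12g25120 (−2.35) and LOC_Os01g05900 (−2.15), LOC_Os01g58420 (AP2, −2.18), LOC_Os04g34140 (U-box, −1.72), OsSAUR11 LOC_Os02g42990 (−1.67) and LOC_Os01g72080 (calmodulin-like, −1.60). The list continued with LOC_Os01g42190 (DnaJ, −1.42), OsFBK12 LOC_Os03g07530 (−1.41), OsWAK85 LOC_Os09g29600 (−1.10), OsSAUR19 LOC_Os04g45370 (−1.03) and CSLD2 LOC_Os06g02180 (−0.90). Positive ones were the phosphatase LOC_Os03g49440 (3.89), the beta-amylase LOC_Os10g32810 (2.29), OsFBK4 LOC_Os02g11790 (1.84), the P680 apoprotein loci LOC_Os06g39708 (1.43) and LOC_Os09g04680 (1.09), the cytochrome P450 LOC_Os03g39760 (0.95) and the DnaJ gene LOC_Os11g10990 (0.85).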

How the results depend on the processing

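The 104 robust genes named by the rule, which had to hold without each low-Pi library and under both rescalings, also kept their direction and stayed called in every fit outside those 8 that could be made, 614 gene-by-fit results in 6 settings, with an adjusted p of at most 0.0455. Counts were less stable. Leaving out 1 low-Pi library at a time gave 1274 to 2443 called genes at low Pi, 430 to 855 higher and 835 to 1588 lower. It gave 152 to 274 higher and 305 to 498 lower by at least 1 on the log2 scale, 432 to 572 called at high Pi and 281 to 878 called interactions. The interaction count was 281 without mutant replicate 2, 304 without WT replicate 3, 340 without mutant replicate 1 and 420 without WT replicate 2. The log2 difference of LOC_Os06g51220 ran from −1.54 to −1.38. A smaller fit has fewer residual degrees of freedom.

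Median-of-ratios scaling gave 1340 higher and 1404 lower genes at low Pi, and upper-quartile scaling 1164 and 1616. A pseudocount of 0.1 gave 711 genes lower by at least 1. The filter at FPKM 5 gave 2120 calls at low Pi and 417 at high Pi, and no filter gave 366 interaction calls. The causes of these shifts were not tested. Same-numbered libraries of the genotypes did not deviate together (r = −0.19, −0.38 and −0.17), so the numbers were not taken to pair the samples. With a replicate block, 2165 genes were called at low Pi, 312 at high Pi and 391 for the interaction.

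Depth is unknown, so no floor can be given for genes listed at 0, and 3 libraries per group limit each estimate. Copies of one gene, tandem paralogs and nuclear copies of plastid genes share reads.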
